A study of Mus musculus with 6 samples.

Results

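Oxidative phosphorylation is carried out by 5 multi-subunit complexes of the inner mitochondrial membrane, and its transcripts were compared here between lenses lacking β1-integrin and wild-type lenses of mouse embryos at E15.5. The members were the features whose symbol matches one of 6 patterns, for mitochondrially encoded subunits (mt-Nd, mt-Co, mt-Atp, mt-Cytb) and for nuclear genes named Nduf, Sdh, Uqcr, Cox4 to Cox8 and Atp5. The patterns found 100 of the 41128 features listed, of which 13 lie on the mitochondrial genome and 87 in the nucleus. The conditional knockout (cKO) group carried β1 Flox/Flox alleles of Itgb1 and the MLR10 Cre transgene in mice of mixed strain. Their lenses were pooled, 30 to a library, in each of 3 biological replicates. The wild-type group was C57Bl/6, given as C57Bl/6 <har> in the design text, with 75 lenses pooled in each of 3 replicates, and its records duplicate samples of an earlier deposition. MLR10 Cre is driven by a modified αA-crystallin promoter and is active in lens epithelium and fiber cells, so vessel, immune and periocular cells that remain on a dissected lens would not be recombined. Strain, the Cre transgene, pool size, sequencing depth, the earlier deposition of the wild type and loss of β1-integrin differ together between the groups and cannot be told apart.

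Complexes I, III and IV pass electrons from NADH and ubiquinol to oxygen while pumping protons, complex II is the succinate dehydrogenase of the citric acid cycle, and complex V is the ATP synthase that uses the proton gradient. The mitochondrial genome encodes the hydrophobic core subunits of complexes I, III, IV and V, the nucleus encodes all of complex II and the remaining subunits, and the products of both genomes must be assembled together. In the developing lens, epithelial cells keep their mitochondria, whereas fiber cells degrade theirs along with other organelles as they mature.

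Values are CPM, a gene's reads scaled to a common library total, as the authors deposited them. Library totals were 20036554 to 28095318 reads for cKO and 10023049 to 11531139 reads in wild type, so 1 read was worth 0.0356 to 0.0998 CPM. A member was called where its limma p, adjusted by Benjamini and Hochberg's method over 11941 genes, was under 0.05. A gene was tested if 3 or more libraries held 1 CPM or more. Log2 fold changes are cKO minus wild type after adding 1 to each CPM value, a scale that shrinks changes of genes with few reads. Itgb1 itself stood at 236, 275 and 262 CPM in cKO libraries 1, 2 and 3, against 402, 424 and 448 CPM in wild type, a log2 fold change of -0.72 (SE 0.08, adjusted p = 1.63e-05). That count covers the whole gene, and the labels do not say which part is floxed. Over all tested genes, 20.9% were called higher in cKO, 15.9% lower and 36.9% either way, and the groups did not overlap for 48.1% (26.9% with cKO higher, 21.2% with cKO lower). edgeR on the recovered reads called 40.0% either way, 20.0% in each direction. Lens fiber markers fixed for the label check summed to 167678 to 187946 CPM in cKO libraries, against 180747 to 192578 CPM in wild type, so both groups carried the labelled tissue.

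The 13 mitochondrially encoded members lie between bases 2751 and 15288 of the mitochondrial genome and fell into a well detected set of 8 and a set of 5 with few or almost no reads. mt-Nd1, mt-Nd2, mt-Co1, mt-Atp8, mt-Nd4, mt-Nd5, mt-Nd6 and mt-Cytb averaged 846 to 3199.7 RPKM (CPM per kilobase of gene length) over the 6 libraries. The other members, mt-Co2, mt-Atp6, mt-Co3, mt-Nd3 and mt-Nd4l, averaged 0.110 to 47.4 RPKM. Each of these 5 has an annotated unprocessed pseudogene in one cluster of 6 on chromosome 1 (chr1:24611535-24615565, minus strand, GRCm38), in the order of the mitochondrial genome. The GENCODE M21 transcripts of the 6 pseudogenes matched their mitochondrial counterparts over their whole length, with 0 mismatches for mt-Co2, mt-Atp6, mt-Co3, mt-Nd4l and the first 876 bases of mt-Nd4, and with 1 mismatch in 345 bases for mt-Nd3. Of the 6 pseudogenes, Gm10222 is listed, at 0 reads and with no RPKM value, and the others are not among the listed features. A 50-base read is as long as the stretches printed here, which show what such a read from either place would contain. Stretches from 3 gene and copy pairs are given 5′ to 3′ on the strand of the gene, as GENCODE M21 transcripts on GRCm38, with bases that differ within a pair in capitals. The mt-Atp6 stretch lies at chrM:8027-8076 (plus strand), the mt-Co2 stretch at chrM:7113-7162 (plus strand) and the mt-Nd3 stretch at chrM:9459-9508 (plus strand).
mt-Co2: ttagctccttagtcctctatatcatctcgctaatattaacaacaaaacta
Gm28661: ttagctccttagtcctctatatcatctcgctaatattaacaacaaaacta
mt-Atp6: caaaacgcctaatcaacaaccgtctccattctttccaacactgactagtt
Gm10925: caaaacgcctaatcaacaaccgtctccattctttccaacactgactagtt
mt-Nd3: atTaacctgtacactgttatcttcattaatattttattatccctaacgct
Gm28438: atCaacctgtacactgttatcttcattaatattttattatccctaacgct

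To put a number on shared sequence, the coding part of each member was divided into 32-base words and the share of words found in transcripts of another gene was counted. That share was at least 99% for the 5 poorly detected mitochondrial members and 62.9% or less for the 8 well detected ones. Among the latter, mt-Co1 shared 62.9%, chiefly with Gm13340 on chromosome 2, which is listed at 0 reads with no RPKM value, and mt-Nd4 shared 62.7% with Gm28439. mt-Nd1 shared 0%. The sources used here do not say how reads matching several places were handled, and the part of shared sequence in these levels was not tested. The 24 mitochondrial rRNA and tRNA features were all listed at 0 with no RPKM value, so the mitochondrial values below cover protein-coding genes alone.

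**Figure D1:**
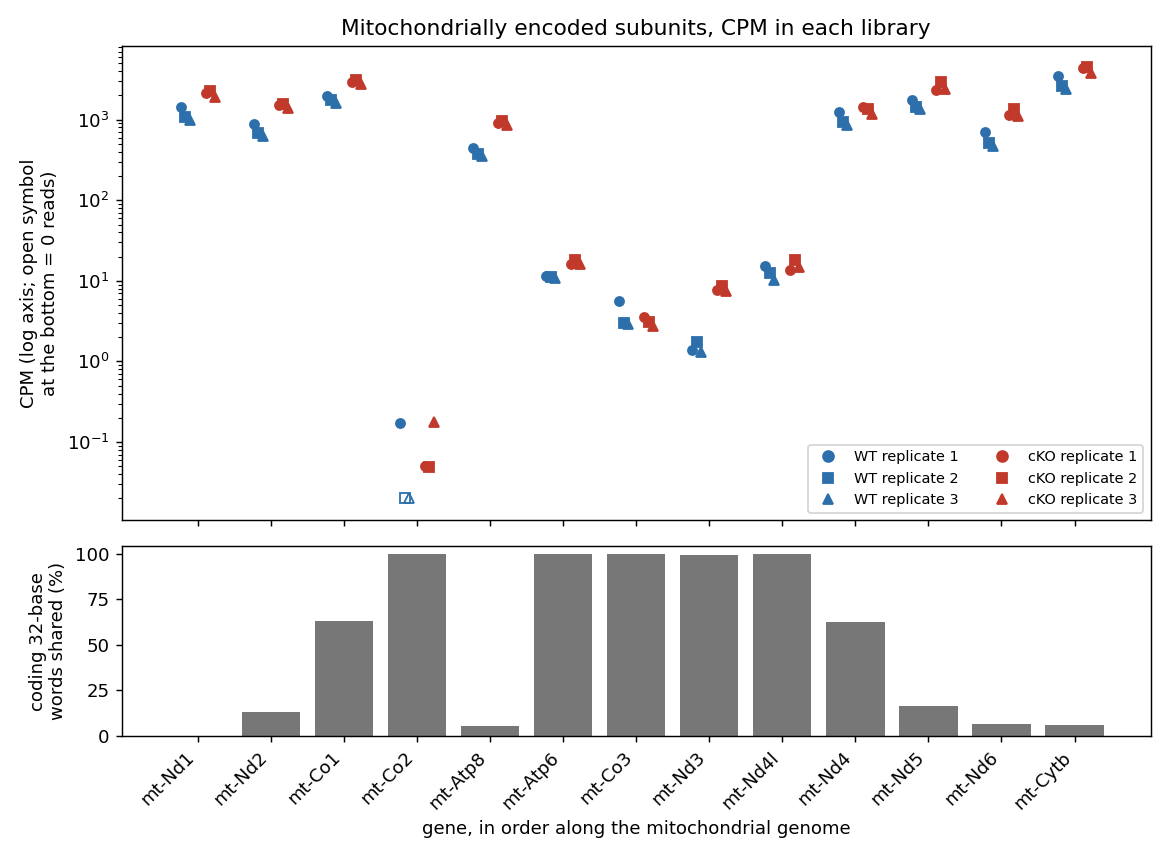
Upper panel, CPM of the 13 mitochondrially encoded members in each library on a log axis, in genome order, wild type in blue and cKO in red with 1 symbol per replicate; lower panel, the percent of each gene's coding 32-base words found in transcripts of another gene. The 5 genes sharing at least 99% of their words sit far below the other 8. In 9 genes every cKO value lies above every wild-type value, as in 26.9% of all tested genes.

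Mitochondrially encoded subunits were higher in cKO. Of the 12 tested, 10 were called higher and 0 lower, against 20.9% and 15.9% of all genes. The groups of 9 did not overlap, all with cKO higher, beside 26.9% of all genes. The median log2 fold change of the mitochondrial members tested was 0.74, against 0.03 over all genes tested. Together they took 1.69, 1.81 and 1.54% of the reads of cKO libraries 1, 2 and 3, against 1.19, 0.938 and 0.871% in wild type, or 1.68 ± 0.132% against 0.999 ± 0.169% (mean ± SD, n = 3), a ratio of 1.68. Every cKO library lay above every wild-type library in this share. In these bulk samples, fewer cells of a type and less RNA per cell cannot be told apart. Under TMM or RLE scaling, edgeR, DESeq2 and voom, 9 of the 12 were called higher and 0 lower, with mt-Nd4 the call lost. Correction for gene length and GC content left 6 of 12 higher (mt-Nd1, mt-Nd2, mt-Nd3, mt-Nd5, mt-Nd6 and mt-Co1) and 1 lower (mt-Co3), with a median of 0.35. Among the 6, the corrected log2 fold changes ran from 0.43 for mt-Nd5 to 1.07 for mt-Nd3.

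Complex I has 7 mitochondrially encoded subunits, which form the core of its membrane arm. mt-Nd1 was at 2129.6, 2258 and 1888 CPM in the cKO libraries, against 1426, 1079.6 and 995 CPM in wild type, a log2 fold change of 0.86 (SE 0.12, adjusted p = 0.000318). mt-Nd2 stood at 1535, 1576 and 1414 CPM in cKO against 877, 689 and 619 CPM, a difference of 1.06 (SE 0.11, adjusted p = 1.44e-05). For mt-Nd5, the cKO libraries gave 2333, 2926 and 2370.1 CPM and the wild-type libraries 1753, 1429.9 and 1375 CPM, with a log2 fold change of 0.74 (SE 0.11, adjusted p = 0.000229). In each of these 3 genes all cKO libraries lay above all wild-type libraries. mt-Nd6, the only subunit gene on the minus strand, reached 1139.7, 1349 and 1125 CPM in the cKO libraries, against 704, 514 and 474 CPM in wild type, a log2 fold change of 1.11 (SE 0.13, adjusted p = 0.000141). It overlaps mt-Nd5 by 14 bases. Because the library kit does not mark strand, reads of the 2 strands cannot be told apart anywhere in mt-Nd6. Its count may therefore include transcripts of the opposite strand. mt-Nd4 was less clearly higher, at 1423, 1368 and 1169 CPM in the cKO libraries, against 1248, 926 and 861 CPM in wild type. Its groups overlapped through wild-type replicate 1, the log2 fold change came to 0.40 (SE 0.13, adjusted p = 0.0311), and edgeR on the recovered reads gave an adjusted p of 0.0642. With length and GC content corrected, mt-Nd4 stood at 0.013 (adjusted p = 0.931, limma).

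The remaining complex I pair, mt-Nd3 and mt-Nd4l, belongs to the poorly detected set. mt-Nd3 had the largest log2 fold change of any mitochondrial member, with 7.64, 8.61 and 7.44 CPM in the cKO libraries, against 1.39, 1.75 and 1.30 CPM in wild type, or 1.85 (SE 0.13, adjusted p = 5.28e-07). The wild-type values rest on 16, 20 and 13 reads, and 1 base of the gene differs from its chromosome 1 copy in the stretch printed above. mt-Nd4l was at 13.7, 18.3 and 14.8 CPM in the cKO libraries, against 15.1, 12.4 and 10.2 CPM in wild type, with overlapping groups and a log2 fold change of 0.30 (SE 0.14, adjusted p = 0.107). Its neighbour mt-Nd4 overlaps it by 7 bases. Of the 7 mitochondrial subunits of complex I, 6 were thus called higher.

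Cytochrome b, the only mitochondrially encoded subunit of complex III and the site of its proton-motive Q cycle, was the most abundant member by CPM. mt-Cytb stood at 4381, 4445 and 3744 CPM in the cKO libraries, against 3471, 2598 and 2372 CPM in wild type, a log2 fold change of 0.59 (SE 0.13, adjusted p = 0.00413). Its lowest cKO library exceeded its highest wild-type library by a narrow margin, and correction for length and GC content ended the call, at 0.27 (adjusted p = 0.0567, limma). In complex IV, mt-Co1, the subunit that holds the site of oxygen reduction, was at 2961, 3119 and 2791 CPM in the cKO libraries, against 1942, 1735 and 1634 CPM in wild type, a difference of 0.74 (SE 0.08, adjusted p = 2.22e-05). mt-Co3 was not called, with 3.54, 3.07 and 2.78 CPM in the cKO libraries, against 5.55, 2.98 and 2.89 CPM in wild type, and a log2 fold change of -0.18 (SE 0.19, adjusted p = 0.483). Wild-type replicate 1 alone lay above all cKO values, and the difference was 0.065 without it. Once length and GC content were corrected, the gene was called lower, at -0.58 (adjusted p = 0.0117, limma). mt-Co2, which takes electrons from cytochrome c, was too low to be tested, with 7 reads in all cKO libraries together and 2 in all wild-type libraries.

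Complex V has 2 mitochondrially encoded subunits, both in its membrane part. mt-Atp8 was at 914, 963 and 864 CPM in the cKO libraries, against 448, 376 and 351 CPM in wild type, a log2 fold change of 1.22 (SE 0.09, adjusted p = 5.28e-07) and the highest level per length of any member (3199.7 RPKM). mt-Atp6, transcribed together with mt-Atp8 and overlapping it by 43 bases, was at 16.0, 18.2 and 16.1 CPM in the cKO libraries, against 11.5, 11.3 and 11.0 CPM in wild type, or 0.53 (SE 0.10, adjusted p = 0.00105). Neither gene's groups overlapped. Correction for length and GC content ended both calls, at 0.26 (adjusted p = 0.0551, limma) for mt-Atp8 and 0.02 (adjusted p = 0.915, limma) for mt-Atp6. The pair shares 1 transcript in the cell, yet its deposited levels per length differed from 3199.7 to 20.6 RPKM. The shares of words found in annotated transcripts of another gene also differed, 5.29% for mt-Atp8 and 100% for mt-Atp6. Genome sequence outside annotated transcripts was not searched, so a copy of mt-Atp8 there would not be counted.

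Within each group the mitochondrial members moved together from library to library. Wild-type replicate 1 was the highest wild-type library for 11 of the 12 tested members, and wild-type replicate 3 was the lowest for all 12. In cKO, replicate 2 was the highest for 10 and replicate 3 the lowest for 9. The median deviation from the group mean was 0.27 (log2) for wild-type replicate 1 and -0.21 for wild-type replicate 3, a spread within wild type wider than the log2 fold changes of mt-Nd4, mt-Nd4l and mt-Co3. Among nuclear members, wild-type replicate 1 was highest for 63 of 78 and wild-type replicate 3 lowest for 49, at median deviations of 0.10 and -0.06.

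Nuclear-encoded members were called in both directions. Of the 87 found, 78 were tested, and 12 were called higher, 16 lower and 50 neither way. These shares, 15.4% and 20.5%, lie near the background of 20.9% and 15.9% of all genes, and the median log2 fold change was 0.04, against 0.03 over all genes. All nuclear members together took 0.871, 0.869 and 0.876% of reads in cKO and 0.915, 0.859 and 0.855% in wild type, so the groups overlapped, with means of 0.872 ± 0.00347% and 0.876 ± 0.0333% (SD, n = 3). Called members ranged from a log2 fold change of -3.52 to 0.76, and apart from Ndufs5 none exceeded 0.80 in size. With length and GC content corrected, 8 were called higher and 20 lower, the median was -0.04, and of the 28 calls 6 higher and 12 lower ones held.

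**Figure D2:**
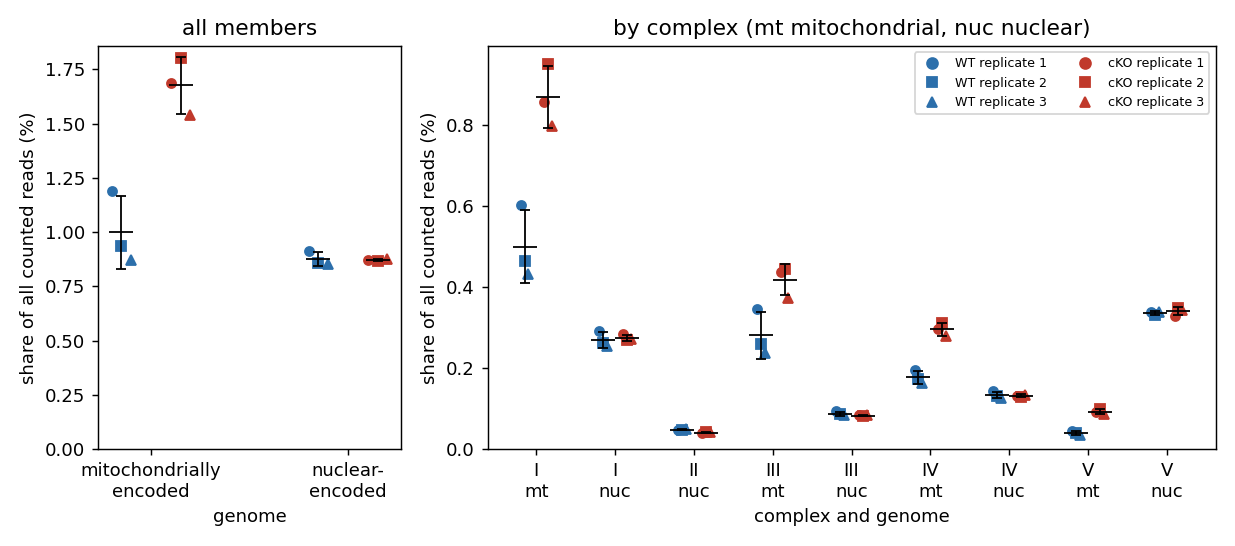
Percent of all counted reads taken by the members in each library (symbols; wild type blue, cKO red), with the mean and SD of 3 replicates as bars, for all members and by complex. The mitochondrially encoded share is 1.68% in cKO against 0.999% in wild type, whereas the nuclear-encoded share is 0.872% against 0.876%.

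The ratio of mitochondrially to nuclear-encoded reads followed from these sums. Over all members it was 1.93, 2.08 and 1.76 in cKO and 1.30, 1.09 and 1.02 in wild type, with no overlap. Within complex I the ratio was 3.16 ± 0.307 in cKO and 1.85 ± 0.192 in wild type (SD, n = 3). For complex III it was 5.05 ± 0.519 and 3.18 ± 0.471. Complex IV gave 2.25 ± 0.184 and 1.33 ± 0.0391, and complex V 0.273 ± 0.0153 and 0.120 ± 0.0147. All 4 complexes with subunits from both genomes thus had more mitochondrial reads per nuclear read in cKO. To these sums the poorly detected genes added 0.00435% of reads in cKO and 0.00292% in wild type. The mitochondrial sum of complex III is mt-Cytb alone. In the cKO means, mt-Co1 gave 2957 of 2960 CPM in complex IV and mt-Atp8 913 of 930 CPM in complex V. Of these 3 genes, mt-Cytb and mt-Atp8 lost their call with length and GC content corrected, and mt-Co1 kept it.

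Complex I was represented by 35 nuclear members, all tested, with a median of 0.04. Of these, 5 (14.3%) were called higher and 8 (22.9%) lower, beside 20.9% and 15.9% of all genes. The higher ones were accessory subunits of the membrane arm: Ndufb4, Ndufb3, Ndufc1, Ndufb5 and Ndufa1. Ndufb4 (chr16:37647170-37654453) was at 11.3, 10.6 and 8.61 CPM in the cKO libraries, against 6.68, 5.96 and 4.29 CPM in wild type, a log2 fold change of 0.76 (SE 0.15, adjusted p = 0.00168), and all its coding words occur in other transcripts. Ndufb3 stood at 37.5, 39.0 and 36.1 CPM against 29.1, 26.3 and 25.9 CPM, a difference of 0.46 (SE 0.08, adjusted p = 0.000991). Neither gene's groups overlapped, and the call of Ndufb3 was lost under correction for length and GC content, at 0.21 (adjusted p = 0.0702, limma). Ndufa1, an X-linked subunit with the highest level per length of the nuclear members (1074 RPKM), was at 508, 483 and 487 CPM in the cKO libraries, against 452, 389 and 381 CPM in wild type, or 0.28 (SE 0.08, adjusted p = 0.0131). Its sign turned under the same correction (-0.061), and Ndufc1 lost its call at 0.16 (adjusted p = 0.0665, limma).

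The 8 lower complex I members included core subunits of the peripheral arm that carry iron-sulfur clusters or flavin: Ndufs7, Ndufs8 and Ndufv1. Ndufs7 (chr10:80249121-80256794), which holds the last iron-sulfur cluster before ubiquinone, was at 42.6, 38.9 and 38.7 CPM in the cKO libraries, against 65.2, 58.6 and 61.3 CPM in wild type, a log2 fold change of -0.61 (SE 0.08, adjusted p = 9.16e-05). Ndufs8, another iron-sulfur protein, was at 51.1, 43.8 and 43.9 CPM against 69.5, 60.8 and 54.7 CPM, with -0.40 (SE 0.10, adjusted p = 0.00596). For the flavoprotein Ndufv1, which oxidizes NADH, the values were 61.1, 68.8 and 64.0 CPM in the cKO libraries, against 83.6, 79.4 and 77.1 CPM in wild type, with -0.31 (SE 0.08, adjusted p = 0.00755). No cKO library of these 3 genes reached the lowest wild-type library, and Ndufv1 lost its call under correction for length and GC content, at -0.17 (adjusted p = 0.0812, limma). The accessory subunits Ndufb10, Ndufa12 and Ndufa11 gave -0.44, -0.39 and -0.30, of which the last moved to -0.16 (adjusted p = 0.16, limma) with that correction. The core subunits Ndufs1, Ndufs3 and Ndufv2 were not called, with 0.24, 0.19 and 0.18.

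Ndufs5, an accessory subunit of the membrane arm on chromosome 4 (chr4:123712710-123718202, minus strand, GRCm38), differed most of all members. It had 1, 1 and 5 reads in the cKO libraries in order of replicate, or 0.0499, 0.0495 and 0.178 CPM, and 12.4, 11.3 and 11.0 CPM in wild type. The log2 fold change came to -3.52 (SE 0.13, adjusted p = 4.76e-10), a size that depends on the 1 added to each CPM value. Summed over libraries, 7 reads in cKO and 382 in wild type gave a depth-corrected ratio of 0.00884 (95% exact binomial interval 0.00353 to 0.0184, counting error only). Ndufs5 has a processed pseudogene, BC002163, on chromosome 16 (chr16:42955631-42955949, plus strand), which matches 317 of 319 aligned bases. BC002163 is listed at 0 reads in every library, with no RPKM value. The gene shares 80.5% of its coding words with other transcripts. Its level in wild type, 13.4 RPKM, is low beside the median of 51.2 RPKM for nuclear complex I members over the 6 libraries. The stretch of the transcript that holds both mismatches (bases 148 to 197 of Ndufs5) is shown for the gene and the pseudogene, with the differing bases in capitals.
Ndufs5: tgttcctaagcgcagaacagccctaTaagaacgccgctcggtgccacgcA
BC002163: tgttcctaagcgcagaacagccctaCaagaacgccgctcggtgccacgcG
The mixed strain of the cKO mice and the C57Bl/6 strain of the controls cannot be told apart from the genotype here, and the sequence of this gene in the cKO mice was not analysed here. Without Ndufs5 the nuclear counts were 12 higher and 15 lower of 77.

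**Figure D3:**
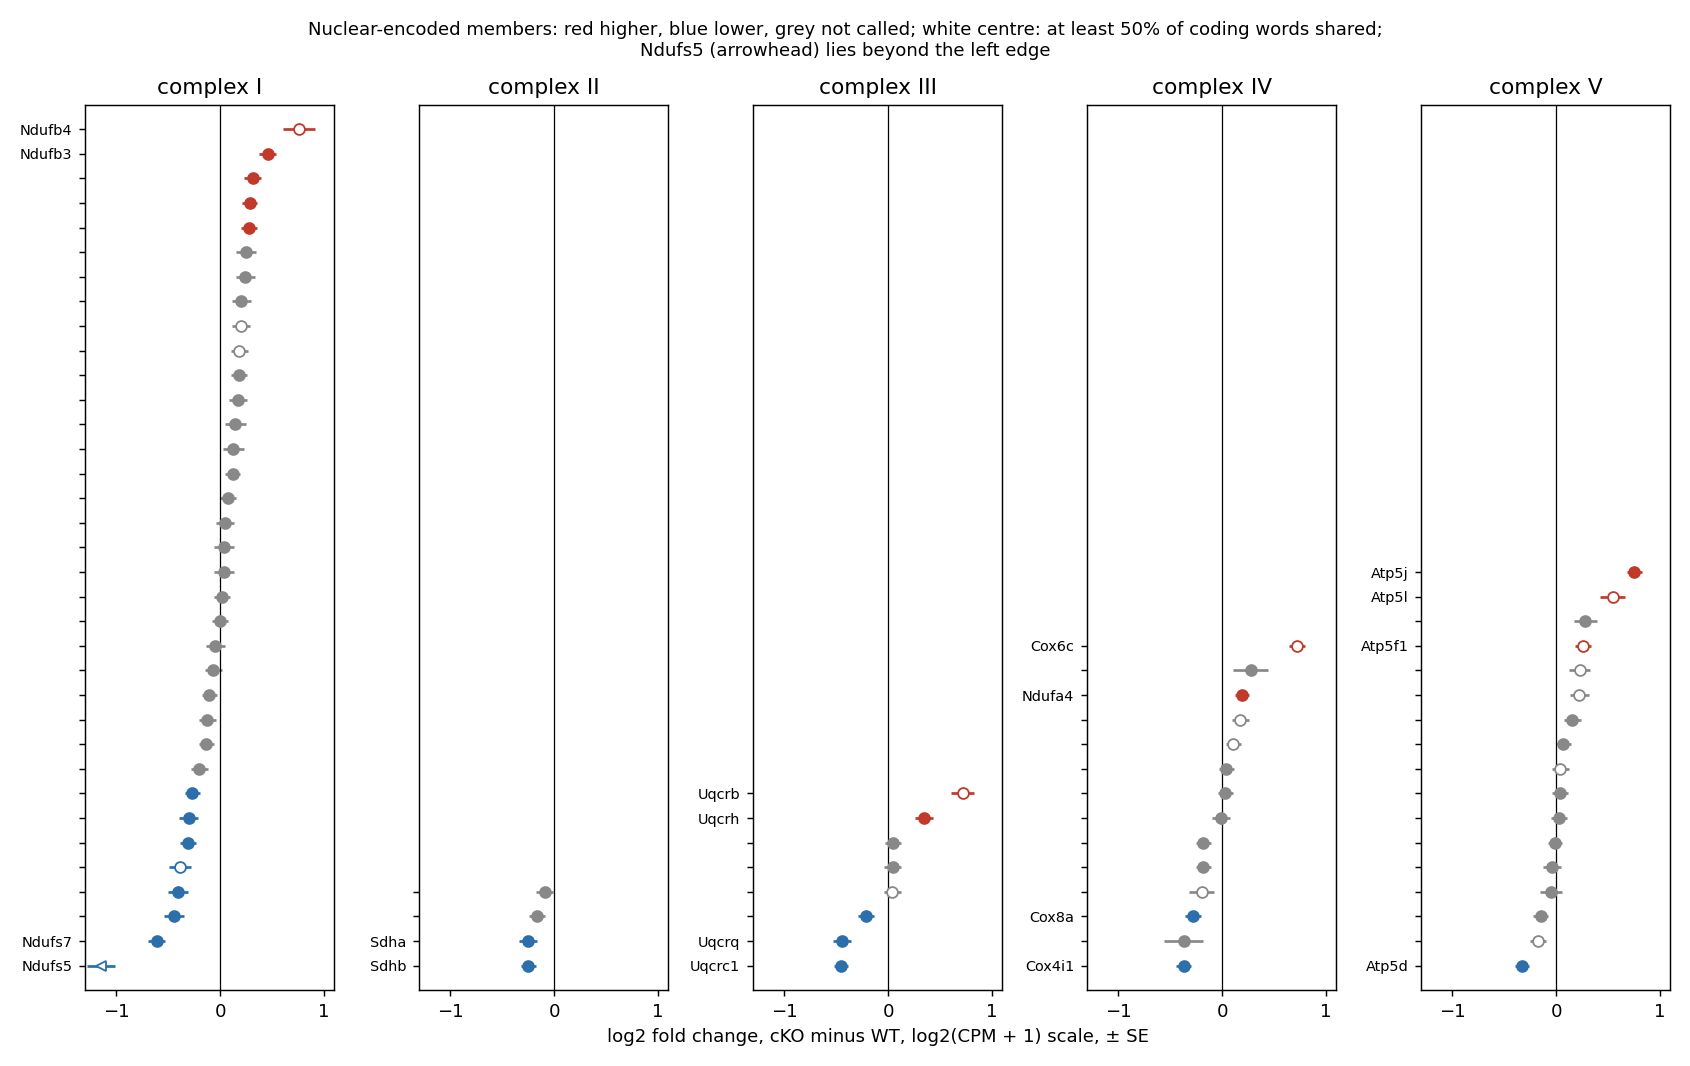
Log2 fold change, cKO minus wild type, on the log2(CPM + 1) scale with its SE for each of the 78 tested nuclear members, in 1 panel per complex, with names for up to 4 of the largest called changes in each; red is called higher, blue called lower, grey not called, and a white centre marks genes sharing at least 50% of their coding words. Most members lie within 0.5 of 0 in either direction, all 4 complex II genes lie to the left of 0, and Ndufs5, at -3.52, is drawn at the left edge.

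Complex II was the one complex whose tested members all had negative log2 fold changes. Its 4 subunits, all nuclear, were called lower in 2 cases (50%) and higher in 0, beside 15.9% and 20.9% of all genes tested. Sdha (chr13:74322254-74350280), the flavoprotein that oxidizes succinate, stood at 155, 186 and 172 CPM in the cKO libraries, against 187, 201 and 222 CPM in wild type, a log2 fold change of -0.25 (SE 0.09, adjusted p = 0.038). Sdhb, the iron-sulfur subunit, was at 155, 138 and 147 CPM against 182, 172 and 169 CPM, with -0.25 (SE 0.07, adjusted p = 0.0165). The membrane anchors Sdhc and Sdhd gave -0.09 (adjusted p = 0.408) and -0.16 (adjusted p = 0.104, limma). Summed, complex II took 0.0403, 0.0417 and 0.0415% of reads in cKO and 0.0474, 0.0476 and 0.0494% in wild type, which do not overlap, a ratio of 0.856. Groups also did not overlap for 48.1% of all tested genes taken singly, 21.2% with cKO lower. The difference was small for each gene, and Sdha and Sdhb kept their call in 14 and 16 of 20 alternative analyses. With length and GC content corrected, Sdhb stood at -0.15 (adjusted p = 0.0827, limma).

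Of the 8 nuclear members of complex III, 2 were called higher (25%) and 3 lower (37.5%), beside 20.9% and 15.9% of all genes. Uqcrb (chr13:66900617-66905378), which binds ubiquinone near cytochrome b, was at 25.6, 28.2 and 24.4 CPM in the cKO libraries, against 16.9, 16.5 and 13.2 CPM in wild type, a log2 fold change of 0.72 (SE 0.11, adjusted p = 0.000266), or 0.38 and still called with length and GC content corrected. Uqcrh, the hinge protein beside cytochrome c1, was at 144, 136 and 153 CPM against 126, 105 and 109.7 CPM, with 0.34 (SE 0.08, adjusted p = 0.00591). In both genes the cKO libraries lay above the wild-type libraries. Uqcrc1 (chr9:108936633-108949623), a core protein of the matrix side, was lower, with 155, 152 and 161 CPM in the cKO libraries, against 214, 210.1 and 216 CPM in wild type, or -0.45 (SE 0.07, adjusted p = 0.000249). Uqcrq, a small membrane subunit, was at 92.4, 80.9 and 84.1 CPM against 129, 109 and 114 CPM, with -0.44 (SE 0.08, adjusted p = 0.00137). Uqcr10 gave -0.22, while the second core protein Uqcrc2 and the Rieske iron-sulfur protein Uqcrfs1 both stood at 0.05 and were not called.

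Complex IV had 20 nuclear members, of which 14 were tested. Of these, 2 were called in each direction (14.3%), beside 20.9% of all genes higher and 15.9% lower. Cox6c (chr15:35925886-35938246), a small membrane subunit, was at 134, 128 and 141 CPM in the cKO libraries, against 85.9, 79.3 and 77.8 CPM in wild type, a log2 fold change of 0.72 (SE 0.07, adjusted p = 1.24e-05). Ndufa4, first described in complex I and now counted with complex IV, gave 0.19 (SE 0.07, adjusted p = 0.0479), but kept this call in 4 of 20 alternative analyses. It lost the call with TMM or RLE scaling, edgeR, DESeq2, voom and without any 1 library, and it was called lower, at -0.29, once gene length and GC content were corrected. Cox4i1 (chr8:120668222-120674207), the ubiquitous form of the largest nuclear subunit, was lower, at 78.1, 73.3 and 77.2 CPM in the cKO libraries, against 103, 96.1 and 96.9 CPM in wild type, with -0.37 (SE 0.07, adjusted p = 0.00166). Cox8a, which had the highest level per length among the nuclear members of complex IV (320.4 RPKM), was at 155, 151 and 167 CPM against 208, 187 and 179.7 CPM, with -0.28 (SE 0.08, adjusted p = 0.0132). The cKO libraries of Cox4i1 and Cox8a lay below all wild-type libraries.

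The tissue-restricted forms of complex IV subunits had few or no reads. The heart and muscle forms Cox6a2, Cox7a1 and Cox8b, the lung form Cox4i2 and the testis forms Cox7b2 and Cox8c were not tested. Among these, Cox7a1 had the highest mean in wild type, 0.972 ± 0.0950 CPM, against 0.737 ± 0.168 CPM in cKO libraries (SD, n = 3). In cKO the highest mean was that of Cox4i2, 0.741 ± 0.0422 CPM. Cox4i2 had 5 to 22 and Cox6a2 5 to 9 reads in each library, and Cox7b2 had 1 read in all. Cox8b and Cox8c were listed at 0 in every library, as were the widely used Sco2 and Mrpl53, so a 0 here does not show that a gene was silent. The testis form Cox6b2 was detected at 3.34, 5.94 and 4.27 CPM in the cKO libraries, against 7.98, 5.35 and 4.99 CPM in wild type, and was not called (-0.37, adjusted p = 0.144, limma). Per length it stood at 4.79 RPKM, beside 283 RPKM for the widely expressed Cox6b1. Ndufa4l2, a hypoxia-responsive relative of Ndufa4, was at 2.15, 2.92 and 1.74 CPM in the cKO libraries, against 1.47, 2.10 and 1.497 CPM in wild type and was not called (0.27). Cox7a2l, a factor that joins complexes III and IV, gave 0.11 and was not called either.

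ATP synthase had 20 nuclear members, of which 17 were tested. Of these, 3 were called higher (17.6%) and 1 lower (5.88%), beside 20.9% and 15.9% of all genes. Atp5j (chr16:84827866-84835625), a subunit of the peripheral stalk, was at 175, 166 and 161 CPM in the cKO libraries, against 105, 97.8 and 94.1 CPM in wild type, a log2 fold change of 0.75 (SE 0.07, adjusted p = 7.58e-06). Atp5l, a membrane subunit near the dimer interface, was at 13.3, 11.0 and 11.0 CPM against 6.85, 8.59 and 7.78 CPM, with 0.55 (SE 0.12, adjusted p = 0.00327), and all its coding words occur in other transcripts. Correction for length and GC content took Atp5l to 0.065 (adjusted p = 0.731, limma). Atp5f1, also of the peripheral stalk, gave 0.26 (SE 0.07, adjusted p = 0.014) and turned to -0.028 under correction for length and GC content. Atp5d (chr10:80138632-80145818), in the central stalk, was lower, at 120.4, 114 and 122 CPM in the cKO libraries, against 156, 145 and 147 CPM in wild type, with -0.33 (SE 0.07, adjusted p = 0.0029), or -0.20 and still called with that correction. The catalytic β subunit Atp5b, the nuclear member of complex V with the highest level per length (308 RPKM), was at 1212, 1382 and 1357 CPM in the cKO libraries, against 1234, 1280.2 and 1368 CPM in wild type, with overlapping groups and 0.02 (adjusted p = 0.829, limma). The 3 genes that encode the same mature ring subunit c, Atp5g1, Atp5g2 and Atp5g3, gave 0.04, 0.22 and -0.01 and were not called. The 3 members not tested are the pseudogenes Atp5l-ps1, Atp5l-ps2 and Atp5l2-ps, listed at 0. The pattern also takes in Atp5s and Atp5sl, which are not classical subunits (0.28 and -0.05, neither called).

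**Figure D4:**
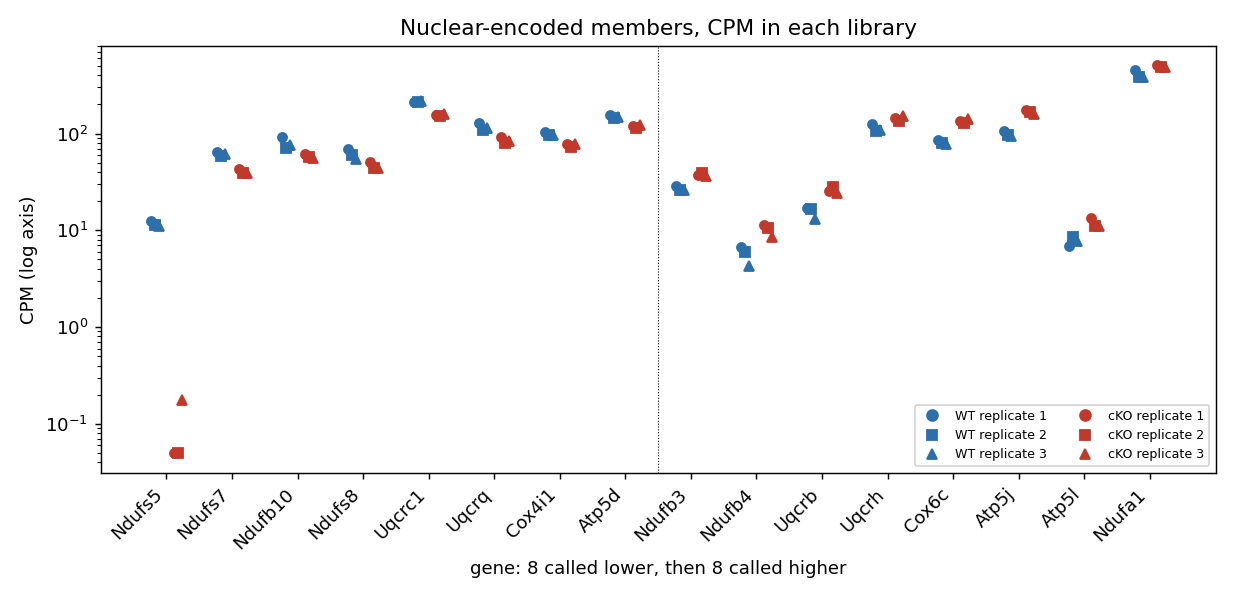
CPM on a log axis in each library (wild type blue, cKO red) for 16 nuclear members, 8 called lower and then 8 called higher in cKO. In each of the 16 genes, all picked from called members, the 2 groups do not overlap, as for 48.1% of all tested genes. Ndufs5 is the one gene that falls near 0.1 CPM in cKO.

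The nuclear calls can also be laid out by shared sequence. Of the 41 tested members that share under 10% of their coding words with another gene, 2 were called higher (4.88%) and 12 lower (29.3%), beside 20.9% and 15.9% of all genes, with a median of -0.04. Of the 20 that share 10% to under 50%, 5 were higher (25%) and 2 lower (10%), and of the 17 that share at least 50%, again 5 were higher (29.4%) and 2 lower (11.8%), with medians of 0.05 and 0.19. The 2 higher genes of the first class were Ndufa1 and Ndufa4, whose signs turned with length and GC correction. Median levels per length were 58.2 RPKM in the first, 76.6 RPKM in the second and 21.9 RPKM in the third. The 5 members with at least 99% shared words, Atp5l, Atp5g1, Atp5g2, Ndufb4 and Cox7c, had a median of 6.76 RPKM. Cox7c, a small subunit of complex IV, was at 4.84, 4.65 and 4.45 CPM in the cKO libraries, against 5.98, 5.08 and 5.39 CPM in wild type. The part of read assignment in these differences was not tested.

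**Figure D5:**
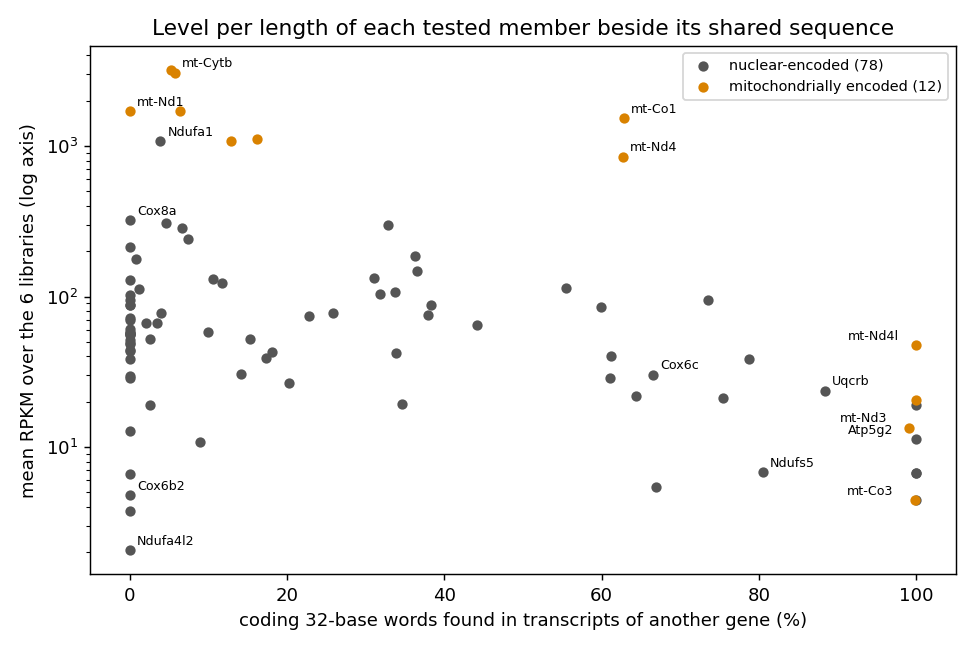
Mean RPKM over the 6 libraries on a log axis against the percent of a gene's coding 32-base words found in transcripts of another gene, for the 78 nuclear (grey) and 12 mitochondrial (orange) tested members. The mitochondrial genes at the right edge lie between 4.42 and 47.4 RPKM, and those at 62.9% or less lie between 846 and 3199.7 RPKM.

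The design of the analysis also called for a count of NRF1 letters in promoters. NRF1 is a transcription factor known for genes of the respiratory chain, and the windows ran from 250 bases before to 50 bases after annotated start sites (RefSeq, GRCm38.p6). The letters searched, the palindromic core of its site, read the same on both strands and stand in capitals in the sequences printed here. They occurred at 5 of the 69 nuclear members matched by symbol or synonym (7.25%) and at 290 of all 27025 genes in the table (1.07%). Among matched members, 2 of the 13 called lower held them, as did 0 of the 10 called higher and 3 of the 43 not called (Cox6a1, Atp5g2 and Atp5k). Of the remaining 3 matched members none was tested and none held the letters. The 2 lower members are shown because they carry both a call and a match, Uqcrc1 at chr9:108936398-108936697 and Ndufa11 at chr17:56717512-56717811, both on the plus strand of GRCm38.p6.
Uqcrc1: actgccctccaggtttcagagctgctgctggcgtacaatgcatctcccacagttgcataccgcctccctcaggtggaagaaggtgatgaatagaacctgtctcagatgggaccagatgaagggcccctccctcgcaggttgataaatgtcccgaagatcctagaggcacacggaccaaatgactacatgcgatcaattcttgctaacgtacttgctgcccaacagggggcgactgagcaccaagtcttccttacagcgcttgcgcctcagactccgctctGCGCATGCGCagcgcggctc
Ndufa11: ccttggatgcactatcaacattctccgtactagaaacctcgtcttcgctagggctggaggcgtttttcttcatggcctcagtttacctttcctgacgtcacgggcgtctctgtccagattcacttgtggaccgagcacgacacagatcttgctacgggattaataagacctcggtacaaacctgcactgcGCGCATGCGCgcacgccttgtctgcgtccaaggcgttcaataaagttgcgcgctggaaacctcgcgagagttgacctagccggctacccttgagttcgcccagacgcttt
A match of letters is a description and not a bound site. The transcript of Nrf1 was at 24.0 ± 0.665 CPM in cKO libraries, against 28.8 ± 1.80 CPM in wild type (SD, n = 3), a log2 fold change of -0.25 (SE 0.08, adjusted p = 0.032), and was singled out after its values were seen.

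Genes that make, import and assemble these subunits showed calls in both directions. Of 43 tested assembly factors, 7 were called higher and 5 lower, with Lyrm7, a complex III assembly factor, at -0.68 and Cox20, which acts in the maturation of mt-Co2 protein, at 0.66. Of 29 tested genes for the expression of mitochondrial DNA and its nuclear control, 6 were higher and 4 lower. Ssbp1, the single-strand binding protein of mitochondrial replication, was at 39.9 ± 1.46 CPM in cKO libraries, against 26.3 ± 4.07 CPM in wild type (SD, n = 3), or 0.59 (SE 0.10, adjusted p = 0.000733), and the coactivator Ppargc1a gave 0.61 (SE 0.20, adjusted p = 0.0292), at 2.05, 2.57 and 2.67 CPM in the cKO libraries, against 0.867, 2.19 and 0.898 CPM in wild type, with overlapping groups. Polrmt, the mitochondrial RNA polymerase, was lower, at 17.1 ± 1.37 CPM in cKO libraries, against 24.5 ± 1.28 CPM in wild type, with -0.49 (SE 0.09, adjusted p = 0.00131). It was singled out after its values were seen. The mitochondrial ribosome had 13 of 76 higher and 8 lower, the import machinery 4 of 21 higher and 2 lower, and the genes of mitochondrial dynamics and mitophagy 4 of 13 higher and 2 lower. Of all tested genes, 20.9% were higher and 15.9% lower. Named by size of change in each list were the ribosomal proteins Mrps26 at 0.71 and Mrps18c at 0.67. Tomm40, the pore of the outer membrane, gave -0.39 and Timm8a1, an import chaperone, 0.39. Park2, the ubiquitin ligase parkin of the mitophagy pathway, was at 6.64, 6.33 and 6.23 CPM in the cKO libraries, against 2.69, 2.81 and 2.69 CPM in wild type, or 0.99 (SE 0.12, adjusted p = 5.3e-05). Bnip3l, a mitophagy receptor active in the lens, gave 0.27. With length and GC content corrected, Cox20 (0.36), Ppargc1a (0.45), Timm8a1 (0.35) and Bnip3l (0.11) were not called.

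Electron carriers and subunits that the name patterns miss were called higher in 3 and lower in 1 of 6 cases. Over all tested genes the shares were 20.9% higher and 15.9% lower. Cycs, cytochrome c itself, was at 13.97, 14.1 and 13.6 CPM in the cKO libraries, against 8.59, 9.82 and 8.68 CPM in wild type, a log2 fold change of 0.58 (SE 0.10, adjusted p = 0.000811). Its membrane-bound electron donor, cytochrome c1 (Cyc1), was lower, at 87.0, 85.7 and 88.3 CPM in the cKO libraries, against 114, 105 and 117 CPM in wild type, with -0.36 (SE 0.07, adjusted p = 0.00213). Both genes had groups that did not overlap, in opposite directions, as was the case for 48.1% of all tested genes in either direction.

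Genes of the citric acid cycle, to which complex II also belongs, and of pyruvate dehydrogenase, which feeds it, were listed together, and 7 of the 18 tested were lower and 3 higher, beside 15.9% and 20.9% of all genes. Idh2, the NADP-dependent mitochondrial isocitrate dehydrogenase, was at 198, 207 and 198 CPM in the cKO libraries, against 297, 279 and 289 CPM in wild type, a log2 fold change of -0.52 (SE 0.07, adjusted p = 8.57e-05). Sucla2, a subunit of succinyl-CoA synthetase, was higher, at 82.9, 95.7 and 87.2 CPM against 61.2, 63.7 and 60.3 CPM, with 0.51 (SE 0.08, adjusted p = 0.000296). The 18 genes summed to 1692 to 1833 CPM in cKO libraries, against 1979 to 2031 CPM in wild type, without overlap.

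Markers of cells other than lens cells moved with the groups. All 7 tested macrophage markers and 9 of 10 endothelial markers were called higher in cKO, as were 4 of 6 pericyte markers (1 lower), 3 of 4 tested periocular mesenchyme markers and 2 of 5 tested erythroid markers (1 lower). Endothelial markers summed to 226 to 269 CPM in cKO libraries, against 137 to 169.5 CPM in wild type, and macrophage markers to 23.4 to 32.8 and 8.76 to 12.7 CPM. Pericyte markers summed to 143 to 167 and 102 to 129.8 CPM, mesenchyme markers to 31.6 to 48.8 and 16.4 to 20.2 CPM, with Foxc2 at 0, and erythroid markers to 149 to 206 and 103 to 125 CPM. Of 7 lens fiber markers 3 were lower, and of 4 lens epithelium markers 1 was higher and 2 lower. The only tested neural retina marker and the only tested striated muscle marker were not called. These counts stand beside 20.9% of all tested genes called higher and 15.9% called lower. The part of these cells in the mitochondrial and nuclear differences was not tested.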

How the data were processed

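Lens mRNA of 3 cKO and 3 wild-type pools was selected by poly(A) and read as 50-base single-end reads, per the labels' protocols. The authors deposited CPM and RPKM for 41128 features. The submitters' processing notes name edgeR and GRCm38, and the aligner, counter, annotation release and handling of reads matching several places are not named in any source used here. All CPM values (100%) lay within 0.05 reads of a whole multiple of the smallest value of their library, taken as 1 read, so reads were recovered by division.

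Because the values are CPM, limma (3.58.1, trend, robust) on log2(CPM + 1) was the main test over 11941 genes, and every adjusted p without another tool's name comes from it. edgeR (4.0.16), DESeq2 (1.42.0) and voom on the reads were alternatives, and edgeR called 2388 genes higher and 2388 lower. Deposited RPKM was used for levels per length. Coordinates and 32-base words came from GENCODE M21, to which 37667 of 38391 Ensembl identifiers matched. The fit was tested on simulated data with 100 genes changed 1.5-fold and 100 changed 2-fold. It recovered 83% and 100% of these, with 12 false calls among 195. In the data themselves 4403 genes were called, so the simulation does not give their rate of false calls. Other alternatives changed scaling, filter, pseudocount, depth, length and GC, shared sequence, block and replicates.

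The labels name biological replicates. Deviations from the group means correlated at 0.33, -0.03 and 0.15 between same-numbered libraries of the 2 groups. Between libraries of unlike number they correlated at -0.31 to 0.21. These values cannot decide whether the numbers pair the samples, and the main test used no pairing. Members and lists were chosen with earlier results of these data known. Named genes are all mitochondrial members, the 4 largest called changes and the highest RPKM per complex, alternative isoforms, Itgb1 and up to 2 genes per other list; further names are examples chosen after their values were seen. Features without an Ensembl identifier held 0.19% to 0.21% of reads.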

Additional observations from a re-analysis of the deposited data

How the results depend on the processing

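Of 1048 values recomputed for 54 named genes under 20 alternatives, 952 kept direction and side of the threshold, 75 lost their call, 5 gained one and 16 reversed. Called the same way in every alternative that gave a value were mt-Nd1, mt-Nd2, mt-Nd3, mt-Nd5, mt-Nd6 and mt-Co1, 6 of 12 higher nuclear members (Atp5j, Cox6c, Uqcrb, Ndufb4, Uqcrh, Ndufb5) and 9 of 16 lower ones (Ndufs5, Uqcrc1, Ndufs7, Uqcrq, Ndufb10, Cox4i1, Atp5d, Ndufs8, Cox8a). Correction for GC content and length left 6 of 12 mitochondrial members higher and 1 lower (mt-Co3), with a median of 0.35, and turned mt-Nd4l to -0.30, Ndufa1 to -0.061, Ndufa4 to -0.29, Atp5f1 to -0.028 and Atp5g3 to 0.0056; the cause was not tested. Without genes that share at least 10% of their words, 4 of 4 mitochondrial members were higher (median 0.98), and of 49 nuclear members 4 were higher and 11 lower, with fewer genes tested. Excluding crystallin reads, which shrinks the total in both groups, raised the difference in mitochondrial share from 0.678 to 0.973 percentage points. In the fit with such totals the median log2 fold change of mitochondrial members was 0.72, against 0.74, and 9 were called higher, against 10. Leaving out single libraries gave a difference in share of 0.613 to 0.773 percentage points. Atp5b, not called, turned to -0.00484 with DESeq2 and with RLE scaling, -0.00491 with voom, and -0.00368 with TMM and -0.00365 with edgeR, and Atp5g3, not called, to 0.000189 without mitochondrial reads in the total. Leaving out 1 library gave -0.31 to 0.065 for mt-Co3, -0.011 to 0.083 for Atp5b and -0.026 to 0.0093 for Atp5g3. It also gave 10 to 17 nuclear members lower (10 without wild-type replicate 2), 9 to 17 higher, and 9 to 11 mitochondrial members higher. Of all calls, 56.8% were higher, against 50.5% with TMM, 48.8% with DESeq2 and 62.2% without cKO replicate 1. With a replicate block, 2916 genes were higher and 2249 lower, with 11 mitochondrial members higher and 17 nuclear members higher and 19 lower. The wild-type depth of 10023049 to 11531139 reads limits genes near 1 CPM, among them mt-Nd3 and Cox7a1.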
